A study of Mus musculus with 4 samples.

Results

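Clcn5, Esrra and Esrrg are 3 of the 25827 genes listed in single-cell RNA sequencing data of mouse myogenic progenitors (MPs), the progeny of muscle stem cells. The genes were chosen by name. Clcn5 is the gene that carries the miR-501 precursor in one of its introns. Esrra and Esrrg encode estrogen-related receptors (ERRs). All 3 were listed under a single identifier each, ENSMUSG00000004317 for Clcn5, ENSMUSG00000024955 for Esrra and ENSMUSG00000026610 for Esrrg.

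Clcn5 encodes a chloride/proton exchanger of endosomes, which works beside the V-ATPase proton pump as endosomes acidify. A miRNA inside an intron can be processed from the transcript of its host gene, so the level of the host is often read as a guide to where the miRNA could be made. Esrra and Esrrg encode ERRα and ERRγ, orphan nuclear receptors that bind DNA without a known natural hormone. Together with coactivators of the PGC-1 family they switch on genes of mitochondrial respiration, fatty acid oxidation and ATP transfer, and both are known from oxidative tissues such as heart and skeletal muscle.

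The cells came from the tibialis anterior muscles of 12-week-old mice, 6 days after cardiotoxin, a venom protein that kills muscle fibres, was injected. Flow cytometry kept cells with α7-integrin on their surface and without CD45, CD31 and Sca1, markers of blood, endothelial and mesenchymal cells. There were 2 libraries from Pax7Cre control mice and 2 from their Pax7CremiR-501fl/Y littermates, called miR-501KO here, in which the X-linked miR-501 gene is floxed. Each library pooled 3 mice, and each of the 2 runs held 1 library per genotype. Both groups carry Cre under the Pax7 promoter, a driver aimed at the muscle stem cell lineage and not at the other cell types of muscle. The miR-501 gene itself is not among the listed genes, and its deletion could not be checked in these counts.

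Each library yielded between 73665012 and 117527749 unique molecular identifiers (UMIs, 1 per captured RNA molecule), and 10450 cells had at least 5000 UMIs and 1000 genes. By library these were 3439 and 1829 Pax7Cre cells and 2833 and 2349 miR-501KO cells. Median depth was 29422 and 34579 UMIs per cell in Pax7Cre and 25254 and 26700 in miR-501KO. A Pax7 UMI was found in 64.4% of cells and a Myog UMI in 53.7%. The library of miR-501KO replicate 1 stood apart: 799 of its cells formed 5 clusters that almost no other library entered (1 further cell). Only 10 cell barcodes were shared between libraries. Clusters were named from marker genes as quiescent-like (2775 cells), cycling-like (2620 cells) and committed-like (1387 cells) progenitors, and as macrophage-like (344 cells), mural-like (264 cells) and Schwann-like (195 cells) cells, present in spite of the gate. A further 144 cells were fibroblast-like, too few in some libraries to test, and 2721 cells, those of the 5 single-library clusters among them, stayed unnamed. The 3 genes were left out of the genes that made the clusters.

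In the GRCm38 assembly Clcn5 lies on the minus strand at chrX:7153810-7319358, Esrra on the minus strand at chr19:6910977-6921813 and Esrrg on the plus strand at chr1:187608791-188214885. The deposited counts were made on GRCm39 per the submitters' processing notes and carry no coordinates, so these positions serve to place the genes and not the reads. The miR-501 hairpin lies at chrX:7241243-7241351 on the strand of Clcn5. It falls in an intron of 103648 bases, which is intron 3 of the coding transcript Clcn5-202, intron 2 of Clcn5-203 and intron 3 of the non-coding Clcn5-204. The coding transcript Clcn5-201 and the non-coding Clcn5-205 start 52637 and 52678 bases downstream of the hairpin's first base and do not contain it. Counts of RNA 3′ ends give 1 value per gene, so UMIs from transcripts that hold the hairpin cannot be told apart from UMIs of transcripts that do not.

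**Figure D1:**
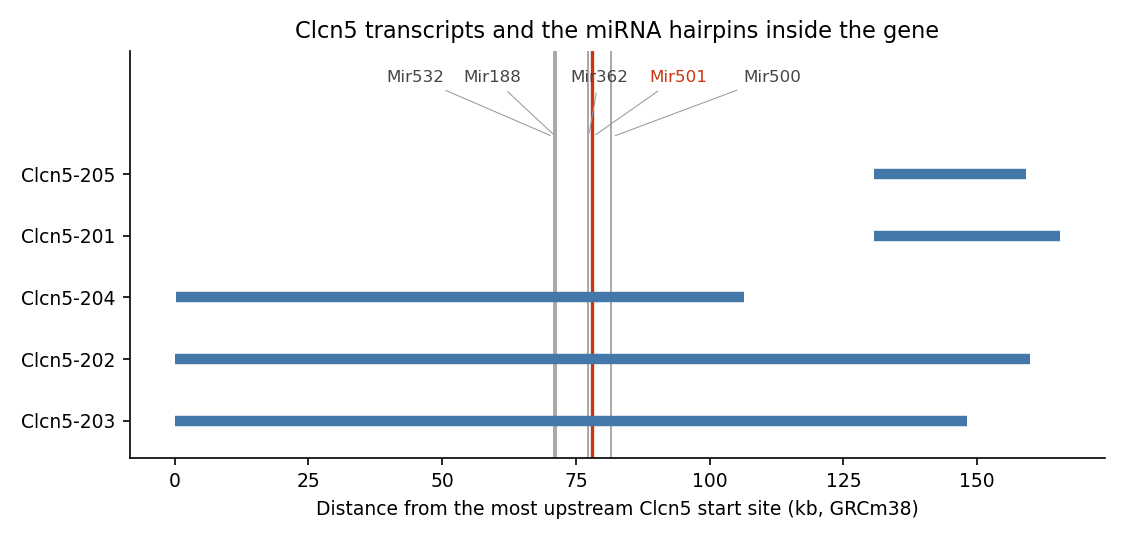
Clcn5 transcripts of the GRCm38 annotation (bars, from start to end site) against the distance in kb from the most upstream Clcn5 start site, with vertical lines at 5 miRNA hairpins. Mir501 (red) falls inside Clcn5-202, Clcn5-203 and Clcn5-204 and upstream of the start sites of Clcn5-201 and Clcn5-205.

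Clcn5 holds 4 more hairpins on its strand, Mir500, Mir362, Mir188 and Mir532. Mature sequences, from RefSeq (GRCm38.p6), are shown because the deleted miRNA shares its seed with a neighbour that the deletion was not aimed at. Capitals mark the seed, bases 2 to 8.
mmu-miR-501-3p: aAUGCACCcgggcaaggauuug
mmu-miR-500-3p: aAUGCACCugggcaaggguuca
mmu-miR-501-5p: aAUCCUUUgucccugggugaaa
mmu-miR-500-5p: aAUCCUUGcuaucugggugcuuagu
mmu-miR-362-5p: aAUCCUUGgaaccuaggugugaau
The seed AUGCACC occurs in 2 of 1738 mature miRNAs in the table, miR-501-3p and miR-500-3p, and these are the same at 18 of 22 positions. Seed AUCCUUG is likewise shared by miR-500-5p and miR-362-5p, while AUCCUUU belongs to miR-501-5p alone.

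Matches to the miR-501-3p seed were looked for in annotated 3′ UTRs of GRCm38 on the sense strand, as the 8-letter word GGTGCATA and the 7-letter words GGTGCAT and GTGCATA, both of which the longer word contains. Capitals mark the match in the lines that follow, each of which is at most 30 bases of reference sequence.
Esrrg, chr1:188212253-188212278, plus strand: aatagttgaagggaaGGTGCATAtta
Clcn5, chrX:7158719-7158744, minus strand: gctacattagcatcccGGTGCATttc
The Esrrg UTR held the 8-letter word 1129 bases after the stop codon, in all 3 of its coding transcripts with a UTR. GGTGCATA occurs in 311 of 20389 genes with an annotated 3′ UTR (1.53%). The UTR of Clcn5-201, the transcript without the hairpin, held GGTGCAT 1001 bases after the stop codon. GGTGCAT occurs in 1328 genes (6.51%) and GTGCATA in 1559 (7.65%). None of these words was in the 774 bases of the Esrra UTR. A match of letters is a description and not a shown binding site.

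Among the named classes Clcn5, relative to all UMIs, was highest in quiescent-like progenitors and fell stepwise through cycling-like and committed-like cells. In CPM, UMIs of a gene per 1000000 UMIs of the summed cells, the level of Clcn5 in quiescent-like cells was 201.2 and 235.9 in the Pax7Cre libraries and 256.5 and 215.7 in the miR-501KO libraries (mean 227.3 ± 24.1, SD, n = 4 libraries of both genotypes). In cycling-like cells Clcn5 was at 125.8 and 143.2 CPM in the Pax7Cre libraries and 159.4 and 123.6 in miR-501KO (138.0 ± 16.7, SD, n = 4). In committed-like cells it was at 87.9 and 88.9 CPM in the Pax7Cre libraries and 103.2 and 89.97 in miR-501KO (92.5 ± 7.19, SD, n = 4). The library ranges of these 3 classes did not overlap, and miR-501KO replicate 1 was the highest library in each. The cycling-like class was uneven: a cluster of 210 cells, 146 of them from miR-501KO replicate 1, lay at 36.9 to 83.3 CPM of Clcn5, below every committed-like library. An unnamed cluster of 1344 cells from all 4 libraries, led by Spp1, lay at 139.3 to 186.2 CPM of Clcn5, a range that overlapped with cycling-like cells. Another unnamed cluster, of 473 cells from all 4 libraries, lay above every quiescent-like library, at 306.9 and 319.1 CPM of Clcn5 in Pax7Cre and 262.2 and 333.7 in miR-501KO. It was led by mitochondrial transcripts, with a median of 27.7% mitochondrial UMIs and 7367 UMIs per cell, and the part of depth and RNA quality in its Clcn5 level was not tested.

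The steps were larger than the spread between libraries. With edgeR's quasi-likelihood test on summed counts, libraries as a block and Benjamini-Hochberg adjustment over 14121 genes, Clcn5 changed by a log2 fold change of -1.12 (SE 0.09, adjusted p = 6.6e-11) from quiescent-like to committed-like cells. From quiescent-like to cycling-like cells Clcn5 changed by -0.65 on the log2 scale (SE 0.09, adjusted p = 8.1e-07). The further step from cycling-like to committed-like cells was -0.47 (SE 0.09, adjusted p = 9.2e-05). Such calls were common between these classes: 63.1% of genes were called between committed-like and quiescent-like cells, 59.9% between cycling-like and quiescent-like cells and 65.8% between committed-like and cycling-like cells. Libraries pool mice, and the library block takes out differences in level between these pools. The p-values therefore measure how far the differences between classes varied from pool to pool, and not the spread between single mice.

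Levels and fold changes are relative to the other UMIs counted and are not amounts per cell. Per cell Clcn5 did not fall at the cycling step, with 16044 UMIs in 2775 quiescent-like and 17019 UMIs in 2620 cycling-like cells. Median depth was 22884 and 25838 UMIs per cell in the quiescent-like clusters and 8260.5 to 47961 in the cycling-like clusters. Fold changes were scaled by TMM, which assumes that most genes are level between classes. With library totals alone, a setting added after the data were seen, the median of all genes moved from -0.02 to -0.19 on the log2 scale between committed-like and quiescent-like cells, from -0.04 to -0.11 between cycling-like and quiescent-like cells and from 0.00 to -0.10 between committed-like and cycling-like cells. The 3 Clcn5 steps kept their direction and call under that scaling, at -1.30, -0.72 and -0.57 respectively.

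Macrophage-like, Schwann-like and mural-like cells held less Clcn5 than the progenitors. Macrophage-like cells were at 66.2 and 48.7 CPM of Clcn5 in Pax7Cre and 53.9 and 57.8 in miR-501KO (56.7 ± 7.38, SD, n = 4). Schwann-like cells were at 25.9, 49.2, 27.9 and 35.3 CPM in the same order of libraries (34.6 ± 10.5, SD, n = 4), and mural-like cells at 22.6, 29.1, 10.5 and 20.6 CPM (20.7 ± 7.72, SD, n = 4). Committed-like cells lay above macrophage-like cells with no overlap of libraries, while the macrophage-like and Schwann-like ranges overlapped, as did the Schwann-like and mural-like ranges. The 144 fibroblast-like cells were at 53.4 and 94.6 CPM of Clcn5 in Pax7Cre and 50.4 and 83.3 in miR-501KO (38, 45, 39 and 127 UMIs), a range that overlapped with committed-like cells and that was not tested.

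Against the mean of the 3 progenitor classes, Clcn5 differed by -1.02 on the log2 scale in macrophage-like cells (SE 0.11, edgeR adjusted p = 3.7e-09), where 63.8% of genes were called. That difference was -1.67 once the cells with the highest doublet scores were left out. In mural-like cells the Clcn5 difference was -3.01 (SE 0.15, adjusted p = 1.5e-15, 60.6% of genes called). It was -2.35 in Schwann-like cells (SE 0.16, adjusted p = 7.5e-13, 52.3% of genes called). The median cell held 5 Clcn5 UMIs in the quiescent-like and cycling-like classes, 3 in the committed-like class and 0 in the macrophage-like, mural-like and Schwann-like classes. With library totals alone the median of all genes stood at -0.32 for macrophage-like, 0.09 for mural-like and 0.34 for Schwann-like cells, and Clcn5 at -1.30, -2.90 and -1.98.

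**Figure D2:**
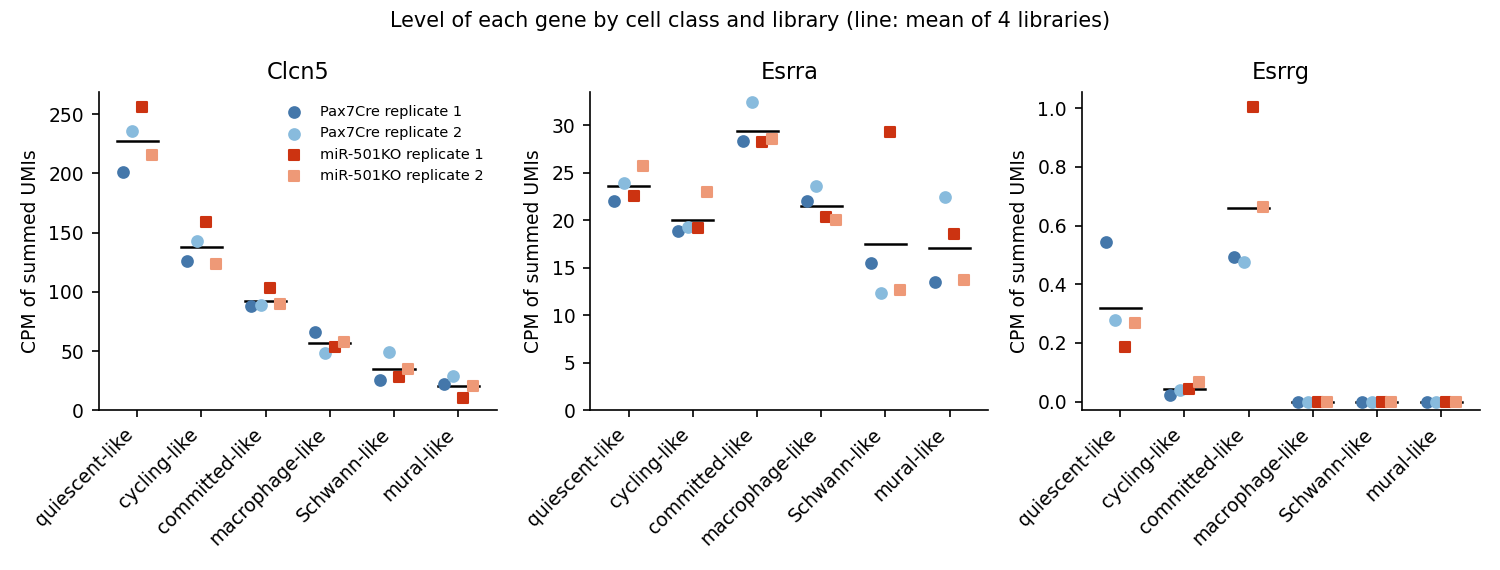
Level of Clcn5, Esrra and Esrrg (CPM of summed UMIs, linear axes) in 6 cell classes, with 1 point per library and a line at the mean of the 4 libraries. Clcn5 falls from 227.3 CPM in quiescent-like to 92.5 CPM in committed-like cells, Esrra is highest in committed-like cells at 29.4 CPM, and Esrrg lies at or below 1.01 CPM throughout with 0 UMIs in macrophage-like, Schwann-like and mural-like cells.

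The same order appeared when cells were divided by Pax7, the factor of muscle stem cells, and Myog (myogenin), the factor that starts terminal differentiation, without clusters. Cells with Pax7 and no Myog UMI held 167.0 and 198.2 CPM of Clcn5 in Pax7Cre and 210.9 and 170.4 in miR-501KO. Cells with Myog and no Pax7 UMI held 89.2, 86.5, 81.5 and 81.1 CPM in the same order, and cells with both genes held 149.8, 162.0, 140.5 and 144.8 CPM. Without the single-library clusters, miR-501KO replicate 1 became the highest library for Myog without Pax7 (108.5 CPM) and for both genes (180.1 CPM). The difference between the first 2 groups was -1.02 on the log2 scale (SE 0.08, edgeR adjusted p = 4.1e-05, 53.1% of 14687 genes called). No library of the Pax7 group overlapped with the Myog group. With library totals alone the median of all genes in this contrast moved from -0.01 to -0.13 and Clcn5 stood at -1.14.

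Across the 24 sums of 6 classes by 4 libraries, after each library's mean was taken out, the genes whose levels followed Clcn5 most closely of 10574 were Capn6 (Pearson r = 0.985), Mest (0.979), Fgfr4 (0.978), Peg3 (0.973) and Mfap4 (0.964). Fgfr4 is also among the marker genes used to name quiescent-like cells, and Mest and Peg3 are imprinted genes. These correlations describe shared classes and libraries and carry no test. For Clcn5 and Esrra the same correlation was 0.458.

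Esrra was detected in all classes and was highest in committed-like cells. In committed-like cells its level was 28.3 and 32.5 CPM in the Pax7Cre libraries and 28.3 and 28.5 in miR-501KO (29.4 ± 2.07, SD, n = 4). Quiescent-like cells held 22.1, 24.0, 22.6 and 25.7 CPM of Esrra in the same order (23.6 ± 1.62, SD, n = 4), and cycling-like cells 18.9, 19.3, 19.1 and 23.02 CPM (20.1 ± 1.97, SD, n = 4). Every committed-like library lay above every library of the other 2 progenitor classes, whereas the quiescent-like and cycling-like ranges overlapped.

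Esrra rose by 0.50 on the log2 scale from quiescent-like to committed-like cells (SE 0.10, edgeR adjusted p = 5.5e-05) and by 0.66 from cycling-like to committed-like cells (SE 0.09, adjusted p = 7.9e-07). With library totals alone the rises were 0.32 and 0.55, still called. Between cycling-like and quiescent-like cells the Esrra difference of -0.16 (SE 0.09, adjusted p = 0.14) did not pass, but it passed at -0.23 with library totals alone (adjusted p = 0.033) and in 3 more alternatives, at -0.23 to -0.27. In the macrophage-like class (20.02 to 23.6 CPM) the difference from the progenitor classes was 0.12 (SE 0.13, adjusted p = 0.44) and had the other sign, -0.16, with library totals alone. Esrra was lower in mural-like cells (13.5 to 22.4 CPM), at -0.69 (SE 0.16, adjusted p = 5.6e-04), and in Schwann-like cells (12.3 to 29.3 CPM), at -0.89 (SE 0.20, adjusted p = 5.9e-04). Myog cells without Pax7 held 24.4 and 29.2 CPM of Esrra in Pax7Cre and 24.3 and 25.8 in miR-501KO, against 21.1, 22.1, 22.0 and 24.9 CPM in Pax7 cells without Myog. These ranges overlapped, and the difference of 0.32 (SE 0.08, adjusted p = 0.013) did not pass without Pax7Cre replicate 2 (0.27, adjusted p = 0.060) or with library totals alone (0.20, adjusted p = 0.093).

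Muscle fibre transcripts moved with the committed-like class. All 12 genes of a myofibre marker list, among them Ckm, Pvalb and the fast myosins, had UMIs there in every library, and their summed level was 7117 and 22690 CPM in the Pax7Cre libraries and 18040 and 9030 in miR-501KO, against 551.4 to 970.6 CPM in quiescent-like cells, where Myh2 was at 0 in 2 libraries. Finer clustering set 36 cells apart in which all 12 markers were raised, 3 and 19 of them from Pax7Cre and 8 and 6 from miR-501KO. Their median was 0.0768% mitochondrial UMIs, against medians of 4.38% to 5.66% in the committed-like clusters. The part of RNA quality in the levels that follow was not tested. Those 36 cells held 98.7 and 77.4 CPM of Esrra in Pax7Cre (11 and 103 UMIs) and 52.2 and 54.5 in miR-501KO (34 and 11 UMIs), and 35.9, 2.26, 16.9 and 4.95 CPM of Clcn5 (4, 3, 11 and 1 UMIs). Esrra was thus higher and Clcn5 lower in them than in the remaining committed-like cells of every library, a description from few cells with no test. In the finer clustering, which moved other cells between classes as well, committed-like Esrra was at 28.1 and 27.0 CPM in the Pax7Cre libraries and 26.4 and 28.1 in miR-501KO, still above the quiescent-like libraries (21.6 to 25.9 CPM), and the rise was 0.37 (SE 0.09, adjusted p = 6.9e-04). Clcn5 then changed by -1.06.

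The genes most like Esrra over the same 24 sums were Ddx19b (r = 0.817), Nt5c2 (0.8002), Ciao3 (0.791), Popdc3 (0.786) and Ccdc86 (0.779), lower values than those seen for Clcn5. Esrra overlaps Trmt112 on the opposite strand.

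Esrrg was close to the limit of detection. The 4 libraries held 25 and 12 Esrrg UMIs in Pax7Cre and 18 and 16 in miR-501KO, 71 UMIs in 62 of 10450 cells (0.593%). Only 6 cells had 2 or more UMIs, and the highest count in a cell was 4. Esrrb, the remaining member of the family, had 2, 1, 3 and 2 UMIs. Esrrg overlaps Gm38315, an unclassified transcript on the same strand, whose reads the counting could have divided with it.

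Most Esrrg UMIs fell in committed-like and quiescent-like cells. Committed-like cells held 10 and 6 Esrrg UMIs in Pax7Cre and 10 and 7 in miR-501KO, a level of 0.492, 0.474, 1.01 and 0.663 CPM (0.659 ± 0.246, SD, n = 4). In quiescent-like cells there were 12, 5, 3 and 4 UMIs, or 0.545, 0.277, 0.186 and 0.269 CPM (0.319 ± 0.156, SD, n = 4). The 2620 cycling-like cells held 1, 1, 1 and 2 UMIs. The committed-like and quiescent-like levels overlapped, with committed-like higher in 3 of 4 libraries, while every cycling-like library was below every quiescent-like library. Esrrg did not reach the count filter of the fit over classes and has no test there.

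As a share of cells, an Esrrg UMI was found in 27 of 1387 committed-like cells (1.95%, 95% Wilson interval 1.34 to 2.82), 21 of 2775 quiescent-like cells (0.757%, 0.496 to 1.15) and 5 of 2620 cycling-like cells (0.191%, 0.0815 to 0.446). Fibroblast-like cells held 2 Esrrg UMIs in 2 of 144 cells (1.39%, 0.382 to 4.92), both in miR-501KO replicate 2. No UMI was seen in 344 macrophage-like, 264 mural-like or 195 Schwann-like cells, which allows shares of up to 0.872%, 1.14% and 1.54% by a limit of 3 counts, and of up to 1.10%, 1.43% and 1.93% by the Wilson interval. Intervals and limits cover counting error only. Within the committed-like class the UMIs were uneven: the cluster led by Myh3 and Myh8, embryonic and perinatal myosins of forming fibres, held 28 UMIs in 22 of 352 cells, at 1.13 to 2.20 CPM, and the cluster led by Myog held 5 UMIs in 5 of 1035 cells. The 36 cells rich in fibre transcripts held 0, 1, 1 and 1 Esrrg UMIs. Cells with an Esrrg UMI were deeper than the others, with a median of 37579 against 28692 UMIs, and the cluster led by Myh3 had a median of 50509 UMIs against 33119 in the cluster led by Myog. The part of depth in these shares was not tested.

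**Figure D3:**
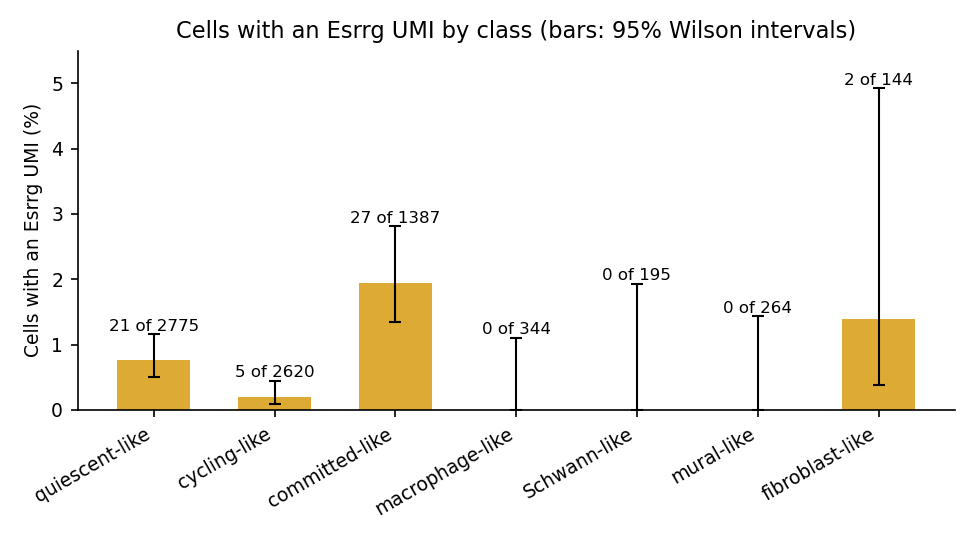
Share of cells with at least 1 Esrrg UMI (%) in 7 cell classes over the 4 libraries, with 95% Wilson intervals as bars and the cell counts above them. The share is 1.95% in committed-like cells (27 of 1387), 0.757% in quiescent-like cells (21 of 2775) and 0.191% in cycling-like cells (5 of 2620), with 2 of 144 fibroblast-like cells (1.39%) and no such cell in the other 3 classes.

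Of the 62 cells with an Esrrg UMI, 45 had a Myog UMI (72.6%), 35 a Pax7 UMI (56.5%), 56 a Clcn5 UMI and 36 an Esrra UMI. Divided by Pax7 and Myog, cells with Myog and no Pax7 UMI held 9 and 6 Esrrg UMIs in Pax7Cre and 9 and 7 in miR-501KO, and cells with Pax7 and no Myog UMI held 7, 3, 3 and 4. The difference in level was 1.54 on the log2 scale (SE 0.47, 95% interval 0.46 to 2.62, edgeR adjusted p = 0.025). It kept its direction but did not pass with DESeq2 (1.64) or without Pax7Cre replicate 2 (1.43), miR-501KO replicate 1 (adjusted p = 0.072) or miR-501KO replicate 2 (adjusted p = 0.074). Esrrg had too few UMIs for a list of genes like it.

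The partners and targets of the receptors were read from 2 lists. The counts stand beside those over all 14121 genes tested. Between committed-like and quiescent-like cells 4428 genes were called higher and 4484 lower (63.1% in all), between cycling-like and quiescent-like cells 4113 and 4349 (59.9%), and between committed-like and cycling-like cells 4622 and 4676 (65.8%), so that a call in a list is common and its share near these says nothing particular of the list. Of 12 coregulators and other members of the ERR family, 10 could be tested, and between committed-like and quiescent-like cells 4 rose and 4 fell (63.1% of all genes called, median 0.05 against -0.02 over all genes). Ppargc1a, the coactivator PGC-1α, rose from 0.818, 0.941, 1.05 and 1.35 CPM to 2.46, 6.17, 7.74 and 3.41 CPM, by 2.36 on the log2 scale (SE 0.31, edgeR adjusted p = 1.8e-07). Committed-like Ppargc1a was highest in miR-501KO replicate 1 and Pax7Cre replicate 2, the libraries with the most fibre transcripts in that class. The part of fibre transcripts in its rise was not tested. The related gene Ppargc1b rose by 0.64, whereas Pprc1, the third PGC-1 gene, changed by -0.55 and the steroid receptor coactivator gene Ncoa3 by -0.56. From quiescent-like to cycling-like cells 7 of the 10 fell and 0 rose (59.9% of all genes called, median -0.25 against -0.04), with Ncoa1 at -0.76 and Prox1 at -0.73. Without miR-501KO replicate 1 the number that fell was 4. From cycling-like to committed-like cells 7 rose and 2 fell (65.8% of all genes called).

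Of 23 ERR target genes of energy metabolism, 21 were tested, and 15 rose and 0 fell between quiescent-like and committed-like cells (63.1% of all genes called, 4428 higher and 4484 lower, list median 0.81 against -0.02). The largest rises were those of Fabp3, a fatty acid binding protein, at 4.16 and Ckmt2, the mitochondrial creatine kinase of muscle, at 3.07. Fabp3 stood at 27.4 and 191.5 CPM in the committed-like cells of Pax7Cre and at 107.9 and 48.5 in those of miR-501KO, against 3.50 to 6.56 CPM in quiescent-like cells. In the finer clustering, in which the 36 cells rich in fibre transcripts stood apart and other cells changed class too, 12 of these 21 genes rose and 1 fell (median 0.61), Fabp3 rose by 2.29 and Ckmt2 stood at -0.39. With library totals alone 13 rose and 1 fell (median 0.63).

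Between quiescent-like and cycling-like cells 13 of the 21 targets rose and 4 fell (59.9% of all genes called, list median 0.54 against -0.04). Cycs, cytochrome c, rose by 1.67 from 150.4 to 160.4 CPM to 436.3 to 482.6 CPM, and Idh3a of the citric acid cycle rose by 1.21, while Ckmt2 and Fabp3 changed by -2.01 and -1.50. Between cycling-like and committed-like cells 12 rose and 4 fell (65.8% of all genes called). In the macrophage-like, mural-like and Schwann-like classes 11, 13 and 15 of the 21 were lower than in the progenitors and 1, 2 and 2 higher, beside 63.8%, 60.6% and 52.3% of all genes called. Esrra itself did not pass at the cycling step in the main setting, though it passed in some of the alternatives, as given above.

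**Figure D4:**
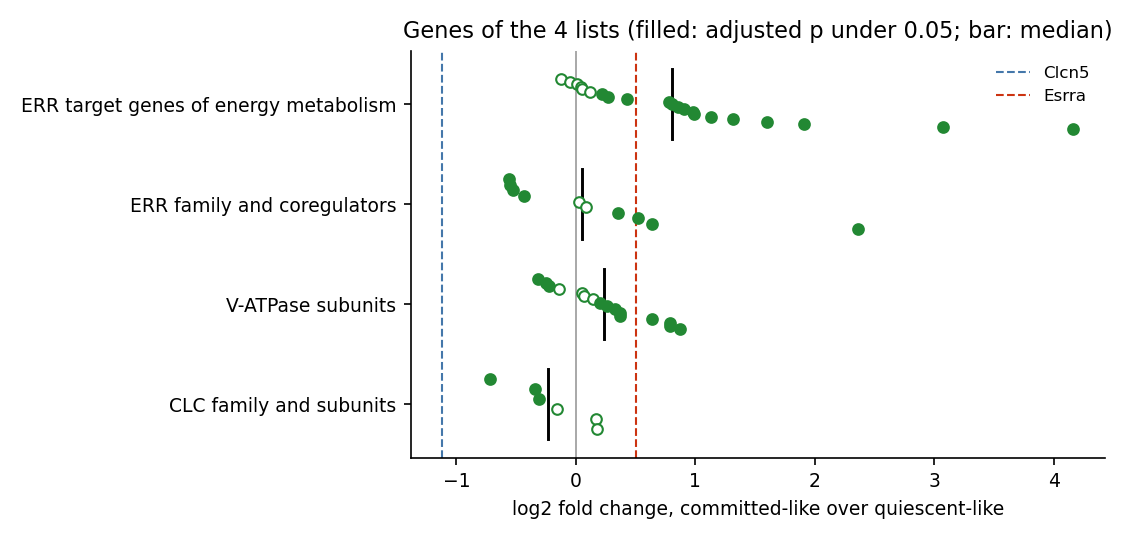
Log2 fold change of committed-like over quiescent-like cells for each tested gene of 4 lists, filled where the edgeR adjusted p is under 0.05, with a black bar at the list median and dashed lines at Clcn5 (-1.12) and Esrra (0.50). The ERR targets of energy metabolism lie mostly to the right of 0 (median 0.81), and no tested gene of the 4 lists fell as far as Clcn5.

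Relatives of Clcn5 were read in the same way. Of 10 genes of the CLC family and their subunits 6 were tested, and 3 fell and 0 rose between quiescent-like and committed-like cells (median -0.24), a share no higher than the 63.1% of all genes called. Without Pax7Cre replicate 2 the number that fell was 1. Clcn2, a plasma membrane chloride channel, changed by -0.72 (SE 0.24, adjusted p = 0.0099) and Ostm1, the subunit of the lysosomal exchanger ClC-7, by -0.34. Between quiescent-like and cycling-like cells 4 fell and 0 rose (59.9% of all genes called), with Clcn2 at -0.63 and Ostm1 at -0.50. In Schwann-like cells, in which Clcn5 was lower, all 6 were higher than in the progenitors (52.3% of all genes called). In macrophage-like cells 4 were higher (63.8% called), and in mural-like cells 3 were higher and 1 lower (60.6% called).

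Relative to the other UMIs counted, subunits of the V-ATPase, the pump that acidifies endosomes, mostly fell at the cycling step and mostly rose towards committed-like cells. All 16 listed subunits were tested, and 9 rose and 3 fell between quiescent-like and committed-like cells (63.1% of all genes called, list median 0.23). Among subunits of the cytosolic part Atp6v1e1 rose by 0.87 and Atp6v1d by 0.79 while Atp6v1b2 changed by -0.31, and Atp6v0d1 changed by -0.25. Between quiescent-like and cycling-like cells 2 rose and 10 fell (59.9% of all genes called; 1 rose without Pax7Cre replicate 2 or miR-501KO replicate 2), with Atp6v1c1 at 0.32, Atp6v0a1 at -0.56 and Atp6v1a at -0.49. Between cycling-like and committed-like cells 12 rose and 0 fell (65.8% of all genes called). In macrophage-like cells 15 subunits were higher and 1 lower than in the progenitors (63.8% of all genes called, list median 1.57), where Clcn5 was lower.

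Of the 10 protein-coding genes that lie next to Clcn5, 5 were tested. Between quiescent-like and committed-like cells 2 fell and 0 rose, a share below the 63.1% of all genes called, Shroom4 by -1.89 (SE 0.50) and Usp27x by -1.15 (SE 0.18) on the log2 scale. Shroom4 was close to the limit of detection, at 0.049 to 0.316 CPM in committed-like and 0.454 to 0.941 CPM in quiescent-like cells. At the cycling step Usp27x changed by -0.76 and Ccdc22 rose by 0.38.

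Whether loss of miR-501 came with a change in its host gene or in the receptors was asked by comparing the genotypes. Over all cells Clcn5 stood at 135.1 and 156.6 CPM in Pax7Cre and at 142.8 and 138.3 CPM in miR-501KO. Esrra stood at 21.8 and 23.4 CPM in Pax7Cre and at 22.6 and 24.6 CPM in miR-501KO. The Esrrg level was 0.219 and 0.167 CPM in Pax7Cre and 0.212 and 0.217 CPM in miR-501KO. For each gene the genotypes overlapped. Sums over all cells cannot tell fewer cells of a type from less RNA per cell.

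The miR-501KO over Pax7Cre difference in level over all cells was -0.07 on the log2 scale for Clcn5 (95% interval -0.29 to 0.16), 0.05 for Esrra (-0.18 to 0.28) and 0.11 for Esrrg (-0.91 to 1.14). None of the 3 passed, nor did any of 15725 genes (0.0%) with edgeR, although 440 had an unadjusted p under 0.05 and DESeq2 called 12. For Esrrg, a difference inside that wide interval was not detectable at this depth. Without the 5 single-library clusters Clcn5 stood at 0.0020 and Esrra at -0.01, both with the sign turned.

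Macrophage markers moved with miR-501KO replicate 1 in these sums. The 12 listed markers, Cd74, Lyz2 and Ptprc among them, had UMIs in every library, and their summed level over all cells was 1802 and 1751 CPM in the Pax7Cre libraries and 2967 and 1853 in miR-501KO. Without the single-library clusters miR-501KO replicate 1 was at 2679 CPM. In committed-like cells the sum was 59.1 to 89.2 CPM, with Ptprc at 0 in 2 libraries, and in cycling-like cells 138.2 to 208.2 CPM. In quiescent-like cells it was 735.1 to 1025 CPM. The part of these markers in the values for Clcn5, Esrra and Esrrg over all cells was not tested.

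Within the progenitor classes the genotypes overlapped for Esrra, and for Clcn5 except in committed-like cells, where both miR-501KO libraries lay above both Pax7Cre libraries by less than the test could tell from the spread. In turn for the classes quiescent-like, cycling-like and then committed-like, the Clcn5 difference was 0.04 (95% interval -0.25 to 0.34), 0.05 (-0.23 to 0.34) and 0.10 (-0.19 to 0.38). For Esrra the differences were 0.01 (-0.32 to 0.33), 0.13 (-0.17 to 0.44) and -0.13 (-0.43 to 0.18). Neither gene passed in any class. edgeR called 1 of 12914 genes in quiescent-like cells (0.00774%), 1 of 13443 in cycling-like cells (0.00744%) and 0 of 12155 in committed-like cells (0.0%), where 301 genes had an unadjusted p under 0.05 and DESeq2 called 1. With the run as a block the calls in quiescent-like and cycling-like cells numbered 55 and 33, and leaving out 1 library gave 17 to 188 and 3 to 86, with neither Clcn5 nor Esrra among them. Esrrg did not reach the count filter within a class and has no test there. Its few UMIs, given above, put both miR-501KO libraries above both Pax7Cre libraries in CPM in committed-like cells, and below them in quiescent-like cells. These orders rest on 16 Pax7Cre and 17 miR-501KO UMIs in committed-like cells and on 17 and 7 in quiescent-like cells. Whether either order exceeds counting error was not tested. In cycling-like cells 2 Pax7Cre and 3 miR-501KO UMIs were too few to order the libraries.

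**Figure D5:**
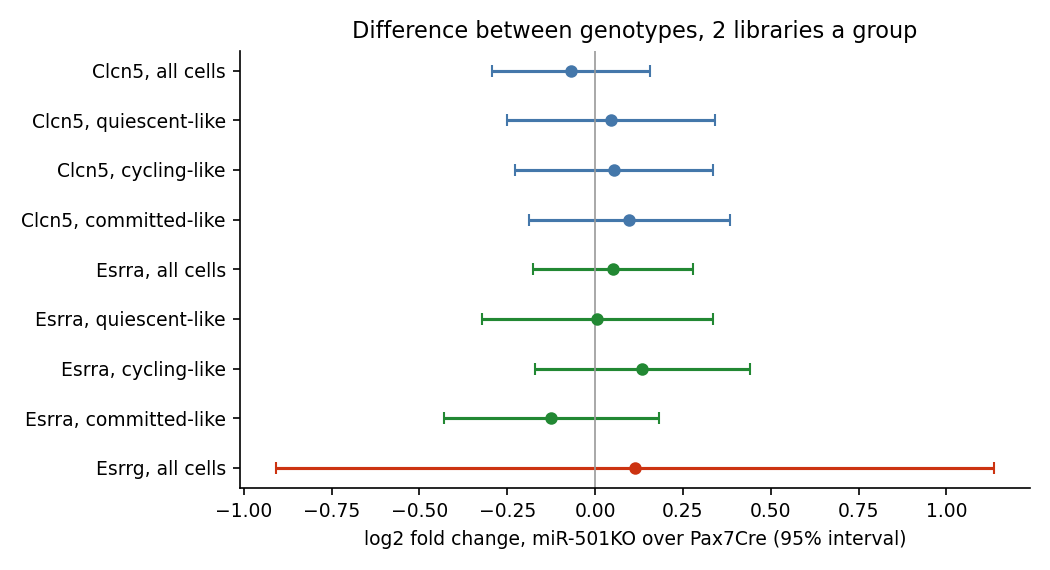
Log2 fold change of miR-501KO over Pax7Cre (points) with 95% intervals (bars) from edgeR, for Clcn5 and Esrra over all cells and in 3 progenitor classes and for Esrrg over all cells, with 2 libraries per group. Every interval holds 0, and that of Esrrg runs from -0.91 to 1.14.

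The genotype difference itself was compared between committed-like and quiescent-like cells. It differed by 0.06 for Clcn5 (SE 0.11), by -0.11 for Esrra (SE 0.14) and by 1.71 for Esrrg (SE 0.87, 95% interval -0.31 to 3.73), and the edgeR adjusted p was 0.99 for all 3. The Esrrg value rests on 17 Pax7Cre and 7 miR-501KO UMIs in quiescent-like cells and on 16 and 17 in committed-like cells. Of 13351 genes 0 were called (0.0%), 445 had an unadjusted p under 0.05 and DESeq2 called 0.

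No member of the lists passed between genotypes over all cells, with medians of -0.10 for the coregulators, -0.04 for the ERR targets, -0.00077 for the CLC family and -0.02 for the V-ATPase. Among the genes next to Clcn5 the differences were -0.14 for Ccdc22 and -0.19 for Usp27x, neither called. Of the 311 genes with the word GGTGCATA in a 3′ UTR, Esrrg among them, 248 were tested and 0 called, with a median of -0.0016 against -0.0011 over all genes. In the same order of progenitor classes their median was 0.03, 0.02 and 0.03, against 0.0066, -0.0017 and -0.0022 over all genes.

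As shares of cells, thinned to 5000 UMIs per cell with no cell left out, a Clcn5 UMI was found in 49.5% ± 2.96 of Pax7Cre cells and 44.5% ± 2.77 of miR-501KO cells (SD, n = 2 libraries each). An exact two-sided permutation test over the libraries gave p = 0.3333, the smallest this design allows. Without the single-library clusters the shares were 49.5% and 49.3%, and before thinning 89.6% and 80.1%. The class with the lowest share was mural-like, at 7.54% in Pax7Cre and 5.44% in miR-501KO after thinning. For Esrra the thinned shares were 10.1% ± 0.396 and 11.4% ± 0.356, higher in both miR-501KO libraries (exact permutation p = 0.3333), while unthinned shares ran the other way at 49.0% and 44.2%, beside the lower depth of the miR-501KO libraries. The thinned Esrrg shares of 0.171% and 0.113% are too close to 0 to compare.

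Cells with both Myog and Cd74, a macrophage gene, are of interest in this series, and they were read for the 3 genes without clusters. There were 188 and 93 such cells in Pax7Cre and 834 and 89 in miR-501KO. Their Clcn5 level was 108.0 and 118.9 CPM in the Pax7Cre libraries and 70.5 and 104.8 in miR-501KO, with miR-501KO replicate 1 the lowest. Once the single-library clusters were left out, that library kept 165 of these cells at 135.5 CPM of Clcn5, the highest of the 4. The largest single-library cluster, 659 cells led by Mylpf, Gzma and Ckm, stood at 37.3 CPM of Clcn5 and 25.6 CPM of Esrra and held 3 Esrrg UMIs. Esrra in cells with Myog and Cd74 ran from 22.3 to 26.8 CPM over the 4 libraries, and Esrrg UMIs numbered 0 and 2 in Pax7Cre and 4 and 2 in miR-501KO. Myog cells without Cd74 held 22.2 to 24.3 CPM of Esrra, a range that overlapped with that of the cells with both genes.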

How the data were processed

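The authors deposited raw UMI counts per gene and barcode from 10x Genomics 3′ libraries, made with Cell Ranger (6.0.2 per the file headers, not the version the study names) on GRCm39 per the labels, with no normalization. Whether intronic reads were counted is not given in the sources used here. Barcodes under 5000 UMIs or 1000 genes were dropped and the rest clustered in scanpy 1.11.5 (2000 variable genes without Clcn5, Esrra and Esrrg, 30 principal components, Leiden resolution 0.5), and clusters were named where markers fitted. Scrublet called 20 doublets (0.191%), too few to rely on, so none were removed and its highest scores were left out as an alternative.

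UMIs were summed per library and class and tested with edgeR 4.0.16 (TMM, filterByExpr, quasi-likelihood, R 4.3.3) at an adjusted p of 0.05. Class and Pax7/Myog tests had the library as a block, and genotype tests had none. The fits were tested on simulated data, where recovery of set changes was required of the class test and not of the genotype test. The simulation gave all genes the same spread, so it does not show how many changes the genotype test would recover in these data. Replicate numbers name the run, which held both genotypes. The correlation of same-run deviations was 0.170 over all cells and -0.180 to -0.0538 within classes. Replicates differed by more than counting noise. Alternatives were DESeq2 1.42.0, RLE, no count filter, library totals, a run block, other cell filters and resolutions, and each library left out.

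In every list up to 2 called genes per direction with the largest changes in all libraries were named, or the most abundant 2 where none was called. Lists held ERR coregulators, ERR targets, the CLC family, V-ATPase subunits, genes next to Clcn5 and genes with a seed match. Members and lists were chosen with earlier results of these data known. Positions and UTRs came from GRCm38 annotation, in which 3 of 3 identifiers matched. One further listed gene is not reported here.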

Additional observations from a re-analysis of the deposited data

How the results depend on the processing

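Of 1415 values recomputed under another setting, 1324 were classed as the same. For fold changes this meant the same direction and side of the threshold, and for differences in shares the same sign. For counts of called genes it meant a set ratio to the main count, and for mean Esrrg levels a shift smaller than the SD over libraries. Of the rest, 36 changed sign, 39 counts or mean levels moved beyond these limits, 12 no longer passed and 4 came to pass. The Clcn5 differences between classes and between Pax7 and Myog cells passed in the same direction in every setting run. With the replicate block (run), Clcn5 over all cells stood at -0.07 and Esrra in quiescent-like cells at -7.0e-05. The block changed the call of none of the 3 genes, while the genes called went to 55 among quiescent-like and 33 among cycling-like cells.

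The Esrra genotype difference in quiescent-like cells, 0.0057, turned to -0.0026 with RLE, -0.0072 without the count filter, -0.0022 with DESeq2, -0.0013 with at most 10% mitochondrial UMIs and -0.012 without the highest Scrublet scores. Without single-library clusters the differences over all cells were 0.0020 for Clcn5, -0.013 for Esrra, -0.11 for Cox5a and -0.044 for Atp6v0c. Esrra came to pass between cycling-like and quiescent-like cells with RLE (-0.23), no count filter (-0.25), library totals alone (-0.23) and a minimum of 2000 UMIs (-0.27). Its macrophage-like difference turned to -0.038 without the count filter and -0.16 with library totals alone. No longer past the threshold were the Pax7 and Myog differences of Esrra with library totals alone (0.20) and of Esrrg with DESeq2 (1.64). Ckmt2 turned to -0.39 at resolution 1.0, Atp6v1g1 to 0.0013 with library totals alone, and the unthinned Esrra share differed by -4.86 percentage points. The cause was not tested.

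Genes called between genotypes over all cells were 12 with DESeq2. In quiescent-like cells they were 93 without the count filter, 8 with library totals alone, 10 with DESeq2, 6 at resolution 0.3, 6 at resolution 1.0, 15 with a minimum of 2000 UMIs and 12 with at most 10% mitochondrial UMIs. In cycling-like cells they were 47 without the count filter, 0 with library totals alone and 2 with DESeq2, and in committed-like cells 1 with DESeq2.

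With each library left out, in a fit that assumes a lone library to vary like the rest, genotype differences of Clcn5 ran from -0.15 to 0.0074 over all cells, -0.039 to 0.13 for quiescent-like cells, -0.083 to 0.19 for cycling-like cells and -0.036 to 0.13 for committed-like minus quiescent-like. Those of Esrra ran from -0.019 to 0.11 over all cells, -0.15 to 0.15 for quiescent-like cells and -0.053 to 0.31 for cycling-like cells, and its macrophage-like difference from -0.066 to 0.21. The Pax7 and Myog difference ran from 0.27 to 0.39 for Esrra and 1.38 to 1.97 for Esrrg, and Esrrg over all cells from -0.078 to 0.36. Over all cells the range was -0.17 to 0.025 for Ncor1, -0.12 to 0.016 for Atp5b, -0.051 to 0.075 for Cox5a, -0.0084 to 0.052 for Clcn3, -0.11 to 0.073 for Atp6v1g1 and -0.44 to 0.086 for Usp27x. Called genes ran from 0 to 3 over all cells, 17 to 188 for quiescent-like, 3 to 86 for cycling-like and 0 to 65 for committed-like cells. The difference in the thinned Esrrg share ran from -0.12 to 0.0039 percentage points.

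The 71 Esrrg UMIs limit every statement on that gene, and 2 libraries per genotype limit the rest. Classes were made from the same cells that were then compared.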
